A study of Rattus norvegicus with 300 samples.

Results

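The nucleus accumbens shell of rats that drank FT was compared with that of rats that drank water alone. FT is not spelled out in the labels; fluoxetine is the one drug in their protocol that no other group name covers, and it was given at 13 mg/kg/day. The comparison takes 10 of the 300 libraries of the series, 5 of region NACShell with treatment FT and 5 of region NACShell with treatment Control, and every gene of the count table. All rats were male Long Evans, 60 days old, and had the treatment in their drinking water for 3 weeks. The shell was punched from frozen sections 250 µm thick, punches were pooled by region, and 300 ng of total RNA went into each stranded total RNA library, so levels include RNA from every cell in the punch. The other 20 NACShell libraries, 5 each of Maltodextrin (a carrier sugar at 10 g/L, the second control of the study), Bupropion (15 mg/kg/day), Desipramine (7.5 mg/kg/day) and Probiotics, shared the fit and are used here only to place the FT values. The sources used here do not give the number of rats behind each pool, so the p-values speak to the spread among these libraries, part of which may be technical.

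Fluoxetine blocks the serotonin transporter, which sits on the axons of raphe neurons, so its messenger RNA is made mostly outside the accumbens. The shell is the ventromedial part of the striatum. Most of its neurons are GABA projection neurons that carry either D1 dopamine receptors with substance P and dynorphin (the direct pathway type) or D2 receptors with enkephalin (the indirect pathway type), and serotonin reaches them through several receptor families. It lies beside the septum, the basal forebrain cholinergic cells, the claustrum and the ventricular wall where new neurons are born.

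Levels are given as CPM, counts scaled to a common library size with TMM factors, and differences as log2 changes, FT minus Control, with their standard error. Calls rest on an adjusted p under 0.05 in the quasi-likelihood test of edgeR, run over the 12116 genes that passed the filter on low counts, of 17337 in the table. Of these, 5654 (46.7%) were called, 3095 higher in FT (25.5%) and 2559 lower (21.1%). A change over 2-fold was found for 333 higher genes (2.75%) and 142 lower ones (1.17%). Scaling by library totals alone gave 4543 higher and 1553 lower genes, a share of 74.5% higher where TMM gave 54.7%, and moved the median of all genes up by 0.123, so changes below are read relative to TMM. Maltodextrin, the other group without a drug, differed from Control in 5620 genes (46.4%), and FT differed from Maltodextrin in 6455 (53.3%). Of these 6455 genes, 3427 were higher in FT and 3028 lower, from the same 12116 tested. List counts against Maltodextrin below are to be read beside these numbers, and those against Control beside 25.5% higher and 21.1% lower over all genes. Where the change printed for a called gene was smaller against Maltodextrin by over 1.5 times or turned, that value is therefore given too; both comparisons use the same FT libraries. All 5 FT libraries stood above all 5 Control libraries for 1585 genes (13.1%) and below them for 1540 (12.7%). Against the 10 libraries of both controls together the counts were 835 above (6.89%) and 700 below (5.78%), and against all 25 other NACShell libraries 75 above (0.619%) and 103 below (0.850%). Leaving out Desipramine library 1, the library with the lowest total, made these last counts 97 and 127.

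Library totals ran from 7737560 to 9448266 counts in Control and from 3797720 to 8951005 in FT, with the lowest in FT replicate 1. That library stood apart from its group. Over the genes tested, its median distance from the median of the other 4 was 0.317 on the log2 scale, where the other FT libraries had 0.102 to 0.150 and the Control libraries 0.089 to 0.113. It held 157 CPM of the small noncoding RNA Bc1, against 22.4 to 35.6 CPM in the other FT libraries. Without it, 3295 genes were called higher and 2753 lower. Each of the 10 libraries resembled the mean Control profile of NACShell more than that of any other region, with correlations over 11188 genes, taken on differences from the mean of all regions and leaving out the library itself, of 0.88 to 0.91 in Control and 0.48 to 0.59 in FT, the lowest in FT replicate 1. Genes of striatal projection neurons were abundant in both groups, though lower in FT, as the values of Drd1, Penk and Ppp1r1b below show.

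Among named genes the highest changes were in Oxt and Avp, which encode oxytocin and vasopressin, the peptides of hypothalamic neurosecretory neurons. In RefSeq (rat build GRCr8) these genes lie next to each other on chromosome 3 with their start sites 12.8 kb apart, on opposite strands. The 250 bases before each start are shown because both genes rose together; capitals mark TGACC on either strand, a half-site that nuclear receptors can bind. The Oxt window holds 5 matches and the Avp window 0, while 35.2% of 27457 rat promoter windows of that length hold at least 1 and 8.16% at least 2.
Oxt (chr3:138235504-138235753, plus strand): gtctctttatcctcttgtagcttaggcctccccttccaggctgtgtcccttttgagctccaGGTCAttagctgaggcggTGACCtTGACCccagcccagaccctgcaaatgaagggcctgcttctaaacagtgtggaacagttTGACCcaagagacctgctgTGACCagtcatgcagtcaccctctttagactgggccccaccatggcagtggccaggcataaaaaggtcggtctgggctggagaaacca
Avp (chr3:138248523-138248772, minus strand): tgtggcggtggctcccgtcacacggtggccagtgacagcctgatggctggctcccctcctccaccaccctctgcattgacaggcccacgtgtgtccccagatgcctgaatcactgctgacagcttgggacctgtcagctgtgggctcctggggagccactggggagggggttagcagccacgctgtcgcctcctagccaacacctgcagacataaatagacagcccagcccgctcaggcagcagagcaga
A match describes the letters and not a site in use.

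Oxt stood at 1.13, 2.08, 2.3, 4 and 3.39 CPM in the Control libraries and at 94.7, 243, 175, 280 and 274 CPM in the FT libraries. Every FT library lay above the 25 libraries of the other treatments, of which the highest reached 8.42 CPM, in Bupropion. The log2 change was 6.35 ± 0.254 (adjusted p = 2.94e-20) against Control and 8.20 against Maltodextrin. Avp ran at 0.424, 0.781, 0.725, 0.801 and 0.501 CPM in Control and at 8.78, 20.4, 16.5, 21.3 and 23.6 CPM in FT. Its groups did not overlap either, and the highest value in any other treatment was 1.66 CPM. The change was 4.80 ± 0.257 (adjusted p = 5.04e-17). In both genes FT replicate 1 was the lowest of the 5. In bulk tissue, more cells that express a gene and more RNA in each such cell cannot be told apart, here or below. Nor can any other difference between the groups, such as the tissue taken in the punches, be told apart from the treatment.

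Tested genes of preoptic and hypothalamic neurons were mostly higher. That list has 22 members, of which 15 passed the filter on low counts, Oxt and Avp included. A gene can pass it through the 5 FT libraries alone, so the counts of this list are a description. Of the 15 tested, 12 were higher and 0 lower, also without FT replicate 1. All 5 FT libraries lay above the 25 others for 3 of the 15. The median change was 1.52 (1.28 against Maltodextrin), beside 0.039 for all genes tested. The summed level of the list was 60.8 to 75.5 CPM in Control, 57.3 to 66.1 in Maltodextrin and 214 to 416 in FT, where Oxt alone held 94.7 to 280 CPM. Sim1, a transcription factor needed for oxytocin neurons, was at 0.283, 0.26, 0.605, 0.229 and 0.501 CPM in Control and at 3.1, 3.46, 3.8, 2.86 and 3.3 CPM in FT. All FT values exceeded the 25 others, and the change was 3.08 ± 0.329 (adjusted p = 1.35e-09) against Control and 1.57 against Maltodextrin. Crh, the stress peptide corticotropin-releasing hormone, went from 2.51 to 3.26 CPM in Control to 6.02 to 10.8 CPM in FT (change 1.57 ± 0.183, adjusted p = 9.83e-09). Pomc, the precursor of melanocortins and beta-endorphin, changed by 1.71 ± 0.319, with 1.55 to 3.38 CPM in FT and 1.9 to 2.89 CPM in Bupropion. The orexin gene Hcrt passed the test at 0.866 ± 0.184 CPM in FT against 0.0995 ± 0.102 CPM in Control (SD, n = 5; adjusted p = 6.08e-05), with 0 to 0.47 CPM in Maltodextrin. Mean Hcrt was 1.34 CPM in Bupropion, 1.26 in Desipramine and 0.766 in Probiotics. Calcr, the calcitonin receptor, rose from 6.55 ± 0.756 to 26.9 ± 2.5 CPM, by 2.05 against Control and 0.45 against Maltodextrin, but it was also at 14.7 to 23.7 CPM in all libraries of the 4 other treatments, and Control was the lowest of the 6 treatments. Gal and Trh rose by 0.95 and 0.50, and Six3 by 1.36 with overlapping groups. Mean Six3 was 10.5 CPM in FT, 11.3 in Bupropion, 9.8 in Desipramine and 14.3 in Probiotics. Slc17a6, the glutamate transporter of many hypothalamic neurons, was not called (0.15, adjusted p = 0.151); it was called without Control replicate 1 (0.22, adjusted p = 0.0499), with library totals (0.28, adjusted p = 0.0102), with both controls pooled (0.49, adjusted p = 0.00552) and against Maltodextrin (0.98). Markers of some hypothalamic neurons stayed at or near 0: Pmch had 0 counts in all 10 libraries, Otp 1 count in all, and Agrp 2 to 9 counts per library in FT and 1 to 9 in Control.

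Gnrh1, the gene of the reproductive releasing hormone whose neurons lie in the septum and preoptic area, was named by the test between regions described below. It ran at 0.141, 0.651, 0.725, 0.915 and 1.13 CPM in Control and at 8.78, 8.03, 6.48, 8.58 and 9.91 CPM in FT. The FT libraries stood above the 25 others, whose highest was 4.99 CPM, and the change was 3.49 ± 0.257 (adjusted p = 2.2e-13) against Control and 2.80 against Maltodextrin.

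**Figure D1:**
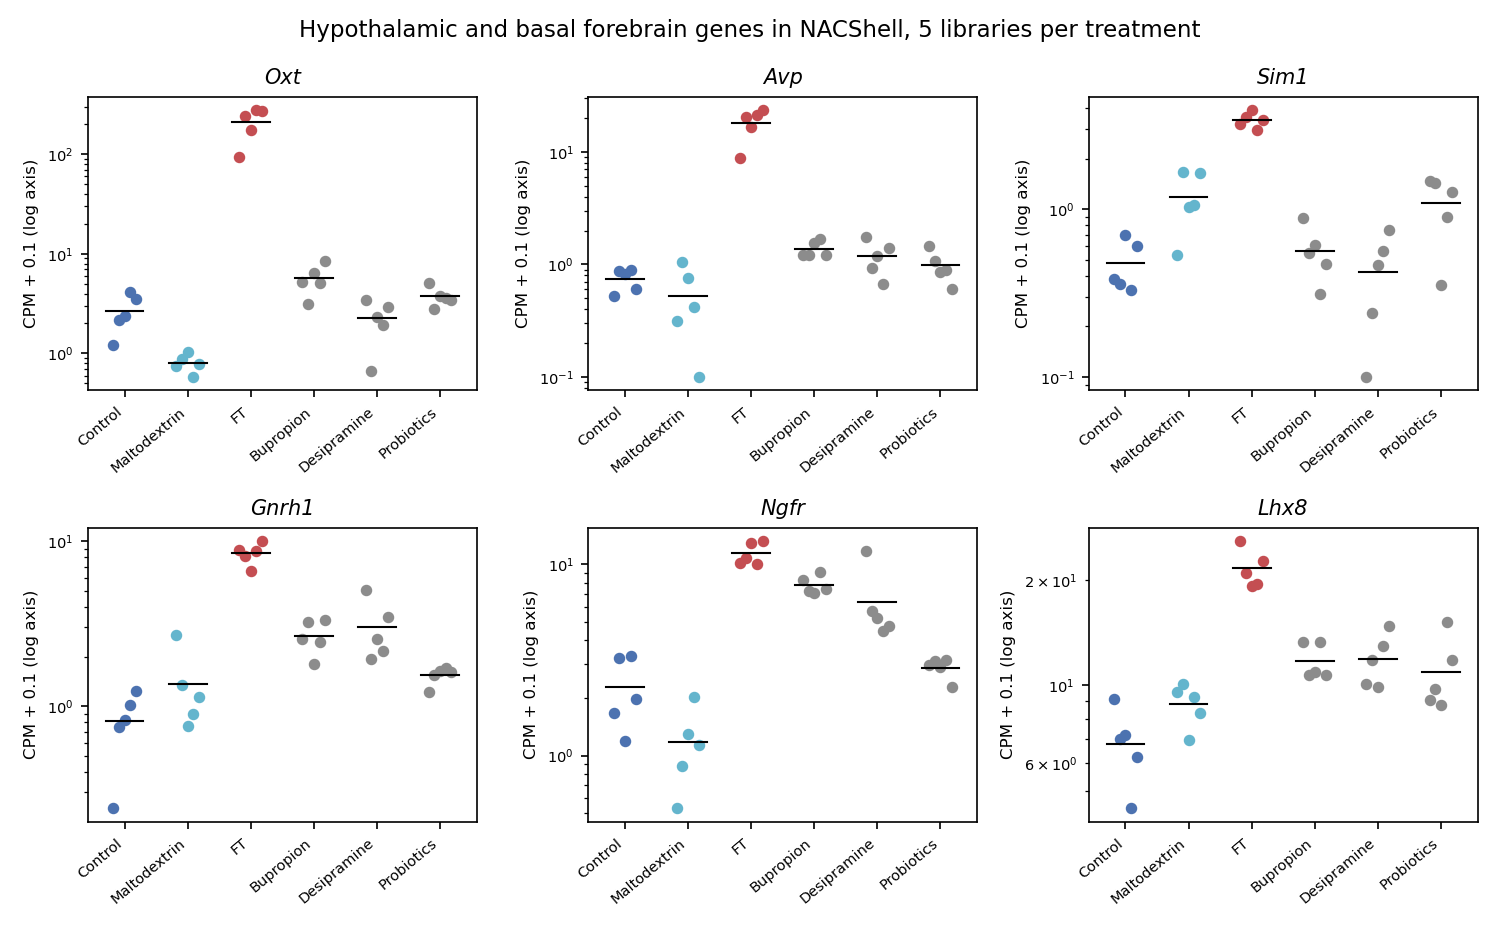
CPM plus 0.1 on a log axis for 6 genes, with 1 point for each of the 5 NACShell libraries of every treatment and a bar at the mean. Oxt, Avp, Sim1, Gnrh1 and Lhx8 have all 5 FT libraries above the 25 others; for Ngfr 1 Desipramine library lies within the FT range.

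Genes of cholinergic and other forebrain interneurons were higher as well. Of 12 tested genes of septal and diagonal band neurons 8 were higher and 0 lower (7 and 1 without FT replicate 1), with a median change of 0.89; against Maltodextrin 7 were higher and 1 lower, with a median of 0.47. Lhx8, the transcription factor that specifies forebrain cholinergic neurons, stood at 9.05, 6.9, 7.13, 4.35 and 6.14 CPM in Control and at 25.8, 20.9, 19.2, 19.4 and 22.6 CPM in FT. No library of another treatment reached the FT range, and the change was 1.68 ± 0.147 (adjusted p = 1.57e-11; 1.29 against Maltodextrin). Chat, which makes acetylcholine, rose from 10.9 ± 0.994 to 24.1 ± 0.877 CPM (SD, n = 5), a change of 1.14 ± 0.0817. The vesicular acetylcholine transporter Slc18a3 rose by 1.81, the choline transporter Slc5a7 by 0.79 (0.52 against Maltodextrin) and acetylcholinesterase (Ache) by 1.36. Ngfr, the low-affinity receptor of nerve growth factor, which sustains basal forebrain cholinergic neurons, was at 1.56, 3.13, 1.09, 3.2 and 1.88 CPM in Control and at 10.1, 10.7, 12.8, 9.89 and 13.1 CPM in FT. These groups did not overlap, and the change was 2.37 ± 0.19 (adjusted p = 1.59e-12; 3.34 against Maltodextrin). Zic2, a transcription factor of the septum, changed by 1.23 against Control and 0.66 against Maltodextrin.

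Among 17 genes of accumbens interneurons 8 were higher and 2 lower (Vip and Cck), the same counts as without FT replicate 1. Cck was at -0.69 against Control and stood 0.51 above Maltodextrin, and Vip was at -0.79 and -0.00. Besides the 4 cholinergic genes, the higher ones were Lhx6, Pvalb, Calb2 and Nos1. Lhx6, which specifies parvalbumin and somatostatin interneurons, was at 8.58 to 10.7 CPM in Control and at 24.8 to 31 CPM in FT, above all other libraries (change 1.58 ± 0.0936, adjusted p = 7.98e-16). The calcium-binding proteins parvalbumin (Pvalb) and calretinin (Calb2) rose by 0.50 and 0.76. Sst, the somatostatin gene, was at 328 ± 19.5 CPM in Control and at 314 ± 40.5 CPM in FT and was not called (-0.06, adjusted p = 0.617), while against Maltodextrin it was 1.09 higher.

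Genes of the shell's own projection neurons were mostly lower in FT. Of 26 tested genes of projection neuron signalling 16 were lower and 2 higher (Foxp2 and Syndig1l), and 11 lay below the libraries of both controls; the median change was -0.22, -0.37 against Maltodextrin and -0.10 with library totals. Summed over the list, Control had 9830 to 10100 CPM, Maltodextrin 12100 to 12600 and FT 6870 to 7410. Arpp21, a cyclic AMP regulated phosphoprotein abundant in these neurons, stood at 4090, 4040, 3970, 4000 and 3940 CPM in Control and at 2720, 1910, 1920, 2250 and 1770 CPM in FT. The ranges were far apart, and the change was -0.92 ± 0.0705 (adjusted p = 5.19e-13; -1.50 against Maltodextrin). Ppp1r1b, which encodes DARPP-32, the phosphatase inhibitor that relays dopamine signals, was at 690, 680, 651, 684 and 695 CPM in Control and at 401, 437, 436, 400 and 525 CPM in FT. All FT values were below those of the 25 other libraries, although FT replicate 5 and the lowest Bupropion library both round to 525 CPM, and the change was -0.63 ± 0.104 (adjusted p = 6.57e-06; -0.39 against Maltodextrin). The sodium channel subunit Scn4b fell from 258 ± 5.59 to 154 ± 12.2 CPM, the retinoic acid receptor Rarb from 60.2 ± 4.99 to 33.7 ± 5.36 CPM, and Rgs4, a brake on G protein signals, from 378 ± 16.7 to 251 ± 25.5 CPM (SD, n = 5; change -0.59, and -0.25 against Maltodextrin). Syndig1l, a synapse protein of the striatum, rose by 0.76. Foxp2 rose by 0.45 against Control, while its change against Maltodextrin was -0.15 (adjusted p = 0.0368).

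Genes of the 2 pathways are given apart; whether the lists differ from each other was not tested. Of 9 indirect pathway genes 8 were lower and 0 higher (7 lower without FT replicate 1), with a median of -0.38, which was -0.26 with library totals. Of 9 direct pathway genes 4 were lower and 3 higher, beside 21.1% lower and 25.5% higher over all genes. Their median was -0.02, and scaling by library totals turned it to 0.11. Without FT replicate 1 that median was -0.14, with 4 lower and 2 higher. Drd1, the D1 receptor, was at 264, 253, 261, 266 and 256 CPM in Control and at 230, 191, 179, 188 and 198 CPM in FT. The groups did not overlap, the change was -0.40 ± 0.0522 (adjusted p = 7.58e-08; -0.71 against Maltodextrin), and the highest FT value was that of replicate 1. Bupropion libraries were as low, at 172 to 196 CPM, while Desipramine had 232 to 260 and Probiotics 249 to 269 CPM. Tac1, the substance P gene, fell from 686 ± 30.6 to 464 ± 74.3 CPM, and Pdyn, the dynorphin gene, from 385 ± 9.97 to 307 ± 28.1 CPM (SD, n = 5). For Tac1, Bupropion had 484 ± 22.4, Desipramine 542 ± 25.6 and Probiotics 618 ± 78.8 CPM. Sfxn1 was the remaining lower gene (-0.15, and 0.07 against Maltodextrin). Isl1 (0.84, and 0.23 against Maltodextrin) and the muscarinic receptor Chrm4 (0.52) were among the higher genes of this list.

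Drd2, the D2 receptor, was at 83.8, 93.8, 81.5, 83.2 and 81.5 CPM in Control and at 59.1, 66.4, 69.6, 66.3 and 67.7 CPM in FT. These 5 values were below every other NACShell library, and the change was -0.36 ± 0.0534 (adjusted p = 1.03e-06; -0.55 against Maltodextrin). The orphan receptor Gpr6, an indirect pathway marker, was likewise below all 25 others, falling from 75.2 ± 2.95 to 49 ± 3.91 CPM (SD, n = 5; change -0.61 ± 0.059). Adora2a, the adenosine receptor that opposes D2 signals, changed by -0.39 ± 0.0547 (-0.18 against Maltodextrin), and Gpr52 by -0.66 ± 0.084. Gpr52 was at 23.7 to 31.8 CPM in FT and at 24.8 to 32.8 CPM in Bupropion. Desipramine had 36.2 to 46.6 and Probiotics 35.2 to 46.2 CPM of Gpr52. Penk, the enkephalin gene, was at 1400 to 1440 CPM in Control and at 955 to 1320 CPM in FT (change -0.36 ± 0.0884, adjusted p = 0.00108). Drd3, which marks parts of the ventral striatum, was low in both groups and not called (2.1 ± 0.499 and 1.79 ± 0.563 CPM, SD, n = 5; adjusted p = 0.617), while its change against Maltodextrin was -1.32. Cartpt, the gene of the CART peptide, passed the test at -0.24 (adjusted p = 0.027) with overlapping groups, but not with library totals (-0.11, adjusted p = 0.238) or without FT replicate 2, 3 or 4 (-0.23 to -0.17).

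**Figure D2:**
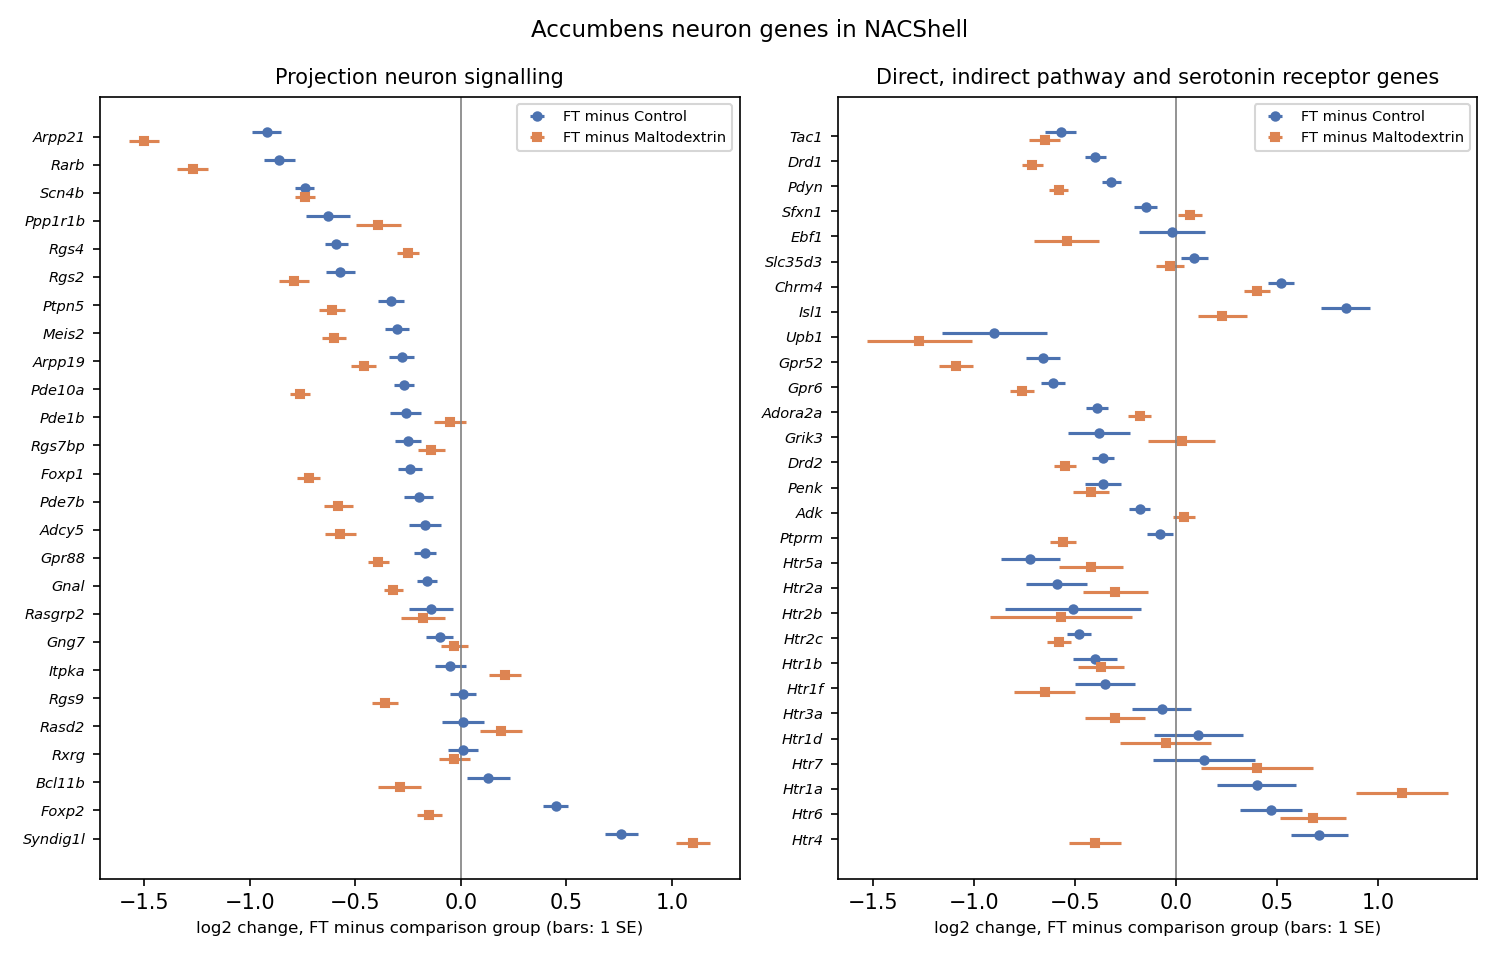
Log2 changes in NACShell with 1 standard error for genes of projection neuron signalling (left) and of the direct pathway, indirect pathway and serotonin receptor lists (right), FT minus Control as circles and FT minus Maltodextrin as squares. Most left-hand genes lie below 0 in both comparisons; Foxp2 and Htr4 are among those that change side between them.

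Serotonin receptor genes changed in both directions. Of 12 tested, 4 were lower and 2 higher, beside 21.1% lower and 25.5% higher over all genes; Htr3b and Htr5b did not pass the filter. Htr2c, the Gq-coupled receptor abundant in the striatum, stood at 421, 411, 425, 422 and 417 CPM in Control and at 383, 291, 279, 276 and 277 CPM in FT. The groups were separate, FT replicate 1 lay nearest to Control, and the change was -0.48 ± 0.059 (adjusted p = 2.47e-08; -0.58 against Maltodextrin). Htr2c was also within the FT range in Bupropion and Probiotics, at 298 to 313 and 322 to 344 CPM, and at 388 to 436 CPM in Desipramine. Htr2a, its relative and a target of several antipsychotics, went from 13.2 to 16.7 CPM in Control to 7.74 to 11.7 CPM in FT (change -0.59 ± 0.151, adjusted p = 0.00163), but was not called against Maltodextrin (-0.30, adjusted p = 0.113). Htr5a changed by -0.72 ± 0.148 (-0.42 against Maltodextrin), and Htr1b, an inhibitory receptor of axon terminals, by -0.40 ± 0.108 (adjusted p = 0.00281) with overlapping groups. Htr6, a Gs-coupled receptor of striatal neurons, rose by 0.47 ± 0.152 (adjusted p = 0.0104) with overlap, a call lost with only the 10 libraries in the fit (0.46, adjusted p = 0.0703). Htr4, another Gs-coupled receptor, was at 5.89 to 7.49 CPM in Control and at 6.71 to 13.7 CPM in FT. It changed by 0.71 ± 0.14 against Control and by -0.40 (adjusted p = 0.0101) against Maltodextrin, whose libraries held 12.1 to 17.9 CPM, so its direction rests on which control is used.

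The transporter that fluoxetine blocks could not be tested in the shell. Slc6a4 had 2, 3, 5, 6 and 5 counts in the Control libraries and 3, 6, 7, 3 and 3 counts in the FT libraries, too few for the filter. Of 11 tested genes of monoamine synthesis, transport and breakdown 4 were lower and 2 higher, beside 21.1% lower and 25.5% higher over all genes. Both monoamine oxidases, the enzymes that break down serotonin and dopamine, were lower. Maob, at 140, 129, 135, 129 and 132 CPM in Control, was at 86, 88.9, 93.7, 91.4 and 88 CPM in FT, below all 25 other libraries (change -0.57 ± 0.0538, adjusted p = 9.64e-11). Maoa fell from 94.7 ± 5.09 to 73.1 ± 3.45 CPM (SD, n = 5), below both controls, while Bupropion libraries, at 72.9 to 84.3 CPM, overlapped FT. The transporter Slc22a3 was lower too, at -0.57 (-0.37 against Maltodextrin, adjusted p = 0.203). Slc29a4, a low-affinity monoamine transporter of the plasma membrane, rose from 2.42 to 4.82 CPM to 6.97 to 12.7 CPM, by 1.51 ± 0.181 against Control and by 1.51 against Maltodextrin. The vesicular transporter Slc18a2 rose by 0.32 against Control and was not called against Maltodextrin (-0.14, adjusted p = 0.251).

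Genes of dividing cells were mostly lower in FT. This list was written after values had been seen, so its count is a description. Of 34 tested members 28 were lower and 0 higher, and without FT replicate 1 there were 28 lower of 35 tested. The median change was -0.90, and -0.85 against Maltodextrin; 16 members lay below the libraries of both controls and 7 below all 25 others. The list summed to 317 to 345 CPM in Control, 315 to 320 in Maltodextrin, 275 to 311 in the other 3 treatments and 200 to 230 in FT. Top2a, the topoisomerase that untangles replicated DNA, was at 10.7, 10.9, 9.07, 11.2 and 10.3 CPM in Control and at 4.13, 3.35, 4.51, 3.12 and 2.57 CPM in FT. All FT libraries were below the lowest of the others (5.94 CPM, in Probiotics), and the change was -1.59 ± 0.174 (adjusted p = 2.19e-09). Cenpf, a centromere protein of mitosis, fell from 3.96 to 5.77 CPM to 0.979 to 2.11 CPM (change -1.92 ± 0.233), again below every other library.

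Further members of the cycle followed. Ns5atp9, the older rat symbol of Pclaf, which binds the replication clamp, fell from 6 ± 1.18 to 1.34 ± 0.545 CPM (SD, n = 5; change -2.18 ± 0.253). Cdca7, a chromatin factor of cycling cells, was at 9.78 to 12.2 CPM in Control and at 2.57 to 3.61 CPM in FT (change -1.94 ± 0.146, adjusted p = 3.48e-13). Cyclin B1 (Ccnb1) changed by -1.42 ± 0.17 (-0.90 against Maltodextrin), its partner kinase Cdk1 by -2.67 ± 0.307, the spindle protein Prc1 by -1.25 ± 0.174, Iqgap3 by -1.59 ± 0.231 and Cks1b by -1.26 ± 0.118. Pcna, the replication clamp itself, changed by -0.46 ± 0.0584. Mki67, the usual marker of proliferation, did not follow. It stood at 9.61, 8.33, 9.31, 8.01 and 7.4 CPM in Control and at 10.3, 7.36, 7.19, 7.54 and 6.36 CPM in FT. These ranges overlap, and the change of -0.18 was not called (adjusted p = 0.252), while against Maltodextrin it was -1.09.

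Many genes of this kind share promoter letters, the CCAAT box and the cell cycle element TTTGAA, which repressor complexes of resting cells bind. The 250 bases before the start of 4 members are shown for that reason, from RefSeq GRCr8, with capitals on either strand for the CCAAT box, the element TTTGAA and its variant TTCGAA. In Ns5atp9 2 CCAAT matches on opposite strands overlap. Of the 34 tested members 28 had a promoter in the table under their symbol. CCAAT was in 21 of those 28 (75%) and in 34.3% of the 27457 windows, at least 2 CCAAT in 16 (57.1%) and in 9.77%, and TTTGAA in 12 (42.9%) and in 16% of windows. TTCGAA was in 3 of the 28 and in 1.5% of windows. Cdca7 and Iqgap3, both lower in FT, had 0 CCAAT and 1 TTTGAA each. Mki67, which was not called, had 4 CCAAT and 2 TTTGAA.
Top2a (chr10:84473094-84473343, minus strand): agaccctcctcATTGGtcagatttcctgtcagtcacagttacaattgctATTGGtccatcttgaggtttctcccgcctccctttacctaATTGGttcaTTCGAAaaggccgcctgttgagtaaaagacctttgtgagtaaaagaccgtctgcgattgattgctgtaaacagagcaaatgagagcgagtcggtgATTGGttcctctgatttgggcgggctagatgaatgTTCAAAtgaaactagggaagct
Cenpf (chr13:103760887-103761136, minus strand): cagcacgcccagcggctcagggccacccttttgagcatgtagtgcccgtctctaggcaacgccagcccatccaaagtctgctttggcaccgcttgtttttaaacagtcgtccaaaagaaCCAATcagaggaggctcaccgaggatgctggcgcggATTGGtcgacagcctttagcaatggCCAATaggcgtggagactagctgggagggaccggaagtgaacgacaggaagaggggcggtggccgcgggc
Ccnb1 (chr2:33655226-33655475, minus strand): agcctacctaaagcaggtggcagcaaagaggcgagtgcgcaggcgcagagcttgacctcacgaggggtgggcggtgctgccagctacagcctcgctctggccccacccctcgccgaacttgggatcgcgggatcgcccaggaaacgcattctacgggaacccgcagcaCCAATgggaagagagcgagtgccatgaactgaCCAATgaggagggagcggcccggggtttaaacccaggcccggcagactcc
Ns5atp9 (chr8:75315467-75315716, plus strand): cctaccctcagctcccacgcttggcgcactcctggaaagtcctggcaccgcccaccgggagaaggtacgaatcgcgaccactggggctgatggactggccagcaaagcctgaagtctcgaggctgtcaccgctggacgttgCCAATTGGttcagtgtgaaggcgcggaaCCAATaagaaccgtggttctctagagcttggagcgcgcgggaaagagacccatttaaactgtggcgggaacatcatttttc
The counts describe letters in these windows and say nothing of which factor was bound.

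**Figure D3:**
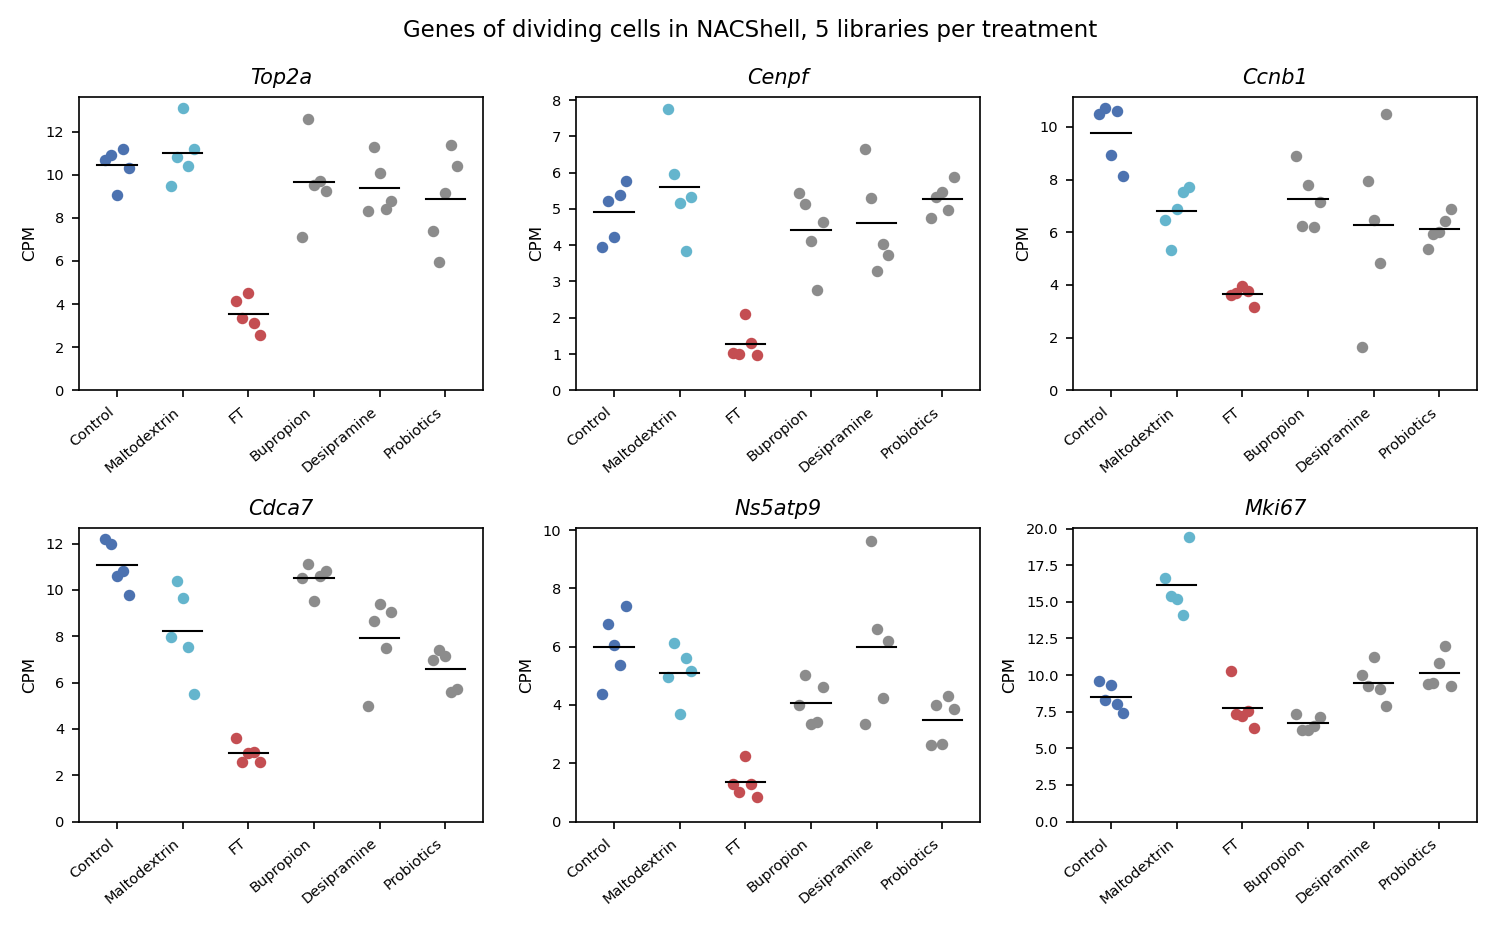
CPM from 0 of 6 genes of dividing cells, with 1 point for each of the 5 NACShell libraries of every treatment and a bar at the mean. Top2a, Cenpf, Cdca7 and Ns5atp9 have all 5 FT libraries below the 25 others, Ccnb1 has 1 Desipramine library below the FT range, and in Mki67 FT and Control overlap.

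Genes of migrating young neurons, also listed after values had been seen, did not move together: of 15 tested, 7 were lower and 4 higher. Ccnd2, the cyclin of neural precursors, was at 84.8, 78.7, 84.6, 74.5 and 93.7 CPM in Control and at 41.8, 45.5, 49, 51.6 and 41.2 CPM in FT, below all other libraries (change -0.85 ± 0.0677, adjusted p = 1.31e-12). Nrep and Cd24, both high in young neurons, changed by -1.15 ± 0.0924 and -0.75 ± 0.0632 and were below all others too. Tnc, a matrix protein of the ventricular zone, went from 11.6 to 16.4 CPM in Control to 2.07 to 6.34 CPM in FT. Dcx, the doublecortin gene of migrating neuroblasts, passed the test at -0.26 (adjusted p = 0.00911) but not with library totals (-0.13, adjusted p = 0.22). The ependyma list, whose cells line the same ventricle, summed to 79.6 to 87.7 CPM in Control and 68.4 to 94.9 CPM in FT, with 4 of 9 genes higher and 1 lower; against Maltodextrin, at 97.3 to 125 CPM, 1 was higher and 6 lower, and its part in these results was not tested.

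Genes of cortical layer 6b and the claustrum, a further list written after values had been seen, included several of the lowest changes. Of 15 tested, 11 were lower and 2 higher (Ntng2 and Foxp2), with a median of -0.56, and -0.31 against Maltodextrin. Ctgf (Ccn2), a matrix signal of layer 6b neurons, stood at 41.9, 37.8, 36.9, 38.8 and 37.9 CPM in Control and at 9.81, 8.7, 7.75, 8.71 and 5.14 CPM in FT. Control and FT do not overlap, though Probiotics libraries at 8.79 to 12.9 CPM reached the FT range, and the change was -2.29 ± 0.115 (adjusted p = 1.21e-17; -1.40 against Maltodextrin). Its family member Nov (Ccn3) was at 229, 215, 225, 231 and 220 CPM in Control and at 56, 61.9, 64.8, 55.9 and 62.8 CPM in FT, below every other library, with a change of -1.89 ± 0.0499 and the smallest adjusted p of the lower genes (7.39e-26). Against Maltodextrin, at 104 to 110 CPM, the change was -0.80. Cplx3, a complexin of subplate neurons, fell from 60.6 ± 4.56 to 15.3 ± 2.09 CPM (SD, n = 5; change -1.96 ± 0.0917, and -0.66 against Maltodextrin). Nxph3 fell by 1.52 against Control but stood 0.11 above Maltodextrin without being called.

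Genes of cortical excitatory neurons split. Of 13 tested, 7 were lower and 3 higher (Neurod2, Cux2 and Bhlhe22), with a median of -0.38 against Control and 0.09 against Maltodextrin. Neurod6, a transcription factor of these neurons, fell by 1.15 on the log2 scale (-0.69 against Maltodextrin) and lay below both controls. Slc17a7, their vesicular glutamate transporter, fell from 226 ± 8.04 to 134 ± 27.7 CPM (SD, n = 5) and was 0.45 higher than in Maltodextrin (adjusted p = 0.000125). Sla fell by 1.37 against Control and was not called against Maltodextrin (-0.23, adjusted p = 0.352). The summed level of the list was 717 to 731 CPM in Control, 505 to 523 in Maltodextrin and 522 to 590 in FT. In the other 3 treatments it was 596 to 893 CPM, so FT lay near Maltodextrin and Control within the range of the others. The part of such neurons in the results was not tested.

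Synaptic genes changed in both directions. Among 22 metabotropic glutamate receptors and postsynaptic scaffold proteins 12 were higher and 5 lower, with a median of 0.31. Shank1, a master scaffold of the postsynaptic density, was at 23.3, 23.2, 24.4, 28.4 and 26.1 CPM in Control and at 42.1, 63.9, 58.6, 82.7 and 55.9 CPM in FT. FT lay above both controls (change 1.29 ± 0.103, adjusted p = 1.49e-12; 1.55 against Maltodextrin), but within the 70.5 to 104 CPM range of the other 3 treatments or under it. Shank3 and Dlgap3, partners in the striatal density, rose by 1.44 (0.75 against Maltodextrin) and 1.22, and Grm4, a presynaptic glutamate receptor, by 1.24. Grm5, the main Gq-coupled glutamate receptor of projection neurons, fell from 142 ± 10.4 to 79.4 ± 5.76 CPM (SD, n = 5; change -0.83 ± 0.0697, and -1.16 against Maltodextrin). It was within the FT range in Bupropion, at 78.4 to 86.4 CPM. The 4 other lower genes were Grm3, Homer1, Dlg1 and Dlg2.

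Vesicle and release genes held 9 higher and 8 lower of 26, beside 25.5% higher and 21.1% lower over all genes. Their median of -0.02 turned to 0.01 without FT replicate 1 and to 0.11 with library totals. Napb, a factor that recycles SNARE complexes, was at 180, 163, 173, 176 and 168 CPM in Control and at 61.2, 63.6, 66.8, 77.9 and 59.2 CPM in FT. All FT libraries lay below every other library (change -1.38 ± 0.0633, adjusted p = 9.1e-19; -0.67 against Maltodextrin), and the vesicle protein Sv2b fell by 0.99 (-0.57 against Maltodextrin). Vamp2, a SNARE of the vesicle, rose from 893 ± 57.2 to 1810 ± 168 CPM (SD, n = 5), and was at 2010 to 2290 CPM in Bupropion. Syp, the synaptophysin gene, fell by 1.44 against Control and was 0.26 higher than in Maltodextrin (adjusted p = 0.0434).

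Enzymes of cyclic AMP and calcium signalling were lower in 23 of 37 and higher in 5 (Prkaca, Pde4a, Camkk1, Camkk2 and Ppp1r1a, the last at 0.31 against Control and 0.00 against Maltodextrin), with a median of -0.26 and of -0.24 against Maltodextrin. Among channels, Hcn2, a pacemaker channel, stood at 8.48, 13.7, 12.6, 14 and 11.3 CPM in Control and at 51.6, 42.6, 44.7, 42.1 and 43.1 CPM in FT, above every other library (change 1.88 ± 0.12, adjusted p = 5.31e-15; 1.00 against Maltodextrin). The potassium channel Kcnd3 rose by 0.64 and was above all others, and the calcium channel subunit Cacna2d3 fell from 104 ± 3.67 to 55.4 ± 3.76 CPM.

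Housekeeping groups had medians below 0 against Control and near 0 against Maltodextrin. Of 47 cytosolic ribosomal protein genes 33 were lower and 1 higher (Rpl8), with a median of -0.40; against Maltodextrin 15 were lower and 8 higher, with a median of -0.04. Nuclear genes of oxidative phosphorylation were lower in 17 of 28 and higher in 0, with medians of -0.27 (-0.14 with library totals) and, against Maltodextrin, 0.06. Tubulins were lower in 10 of 13 and higher in 1, with medians of -0.50 and, against Maltodextrin, 0.09. Rpl3 fell by 1.01 (-0.54 against Maltodextrin), Rpl10 by 0.81 (-0.29 against Maltodextrin) and the complex II subunit Sdhd by 1.17, each also lower than in Maltodextrin, and so did the proteasome subunit Psma5, by 1.02. Tuba1a fell by 0.88 against Control and was not called against Maltodextrin (-0.15, adjusted p = 0.15). Tubb4a, the tubulin of myelinating cells and axons, was the exception: it rose from 531 ± 38.4 to 1500 ± 346 CPM (SD, n = 5), by 1.50 against Control and 2.75 against Maltodextrin. Bupropion libraries held still more Tubb4a, at 2180 to 2680 CPM.

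**Figure D4:**
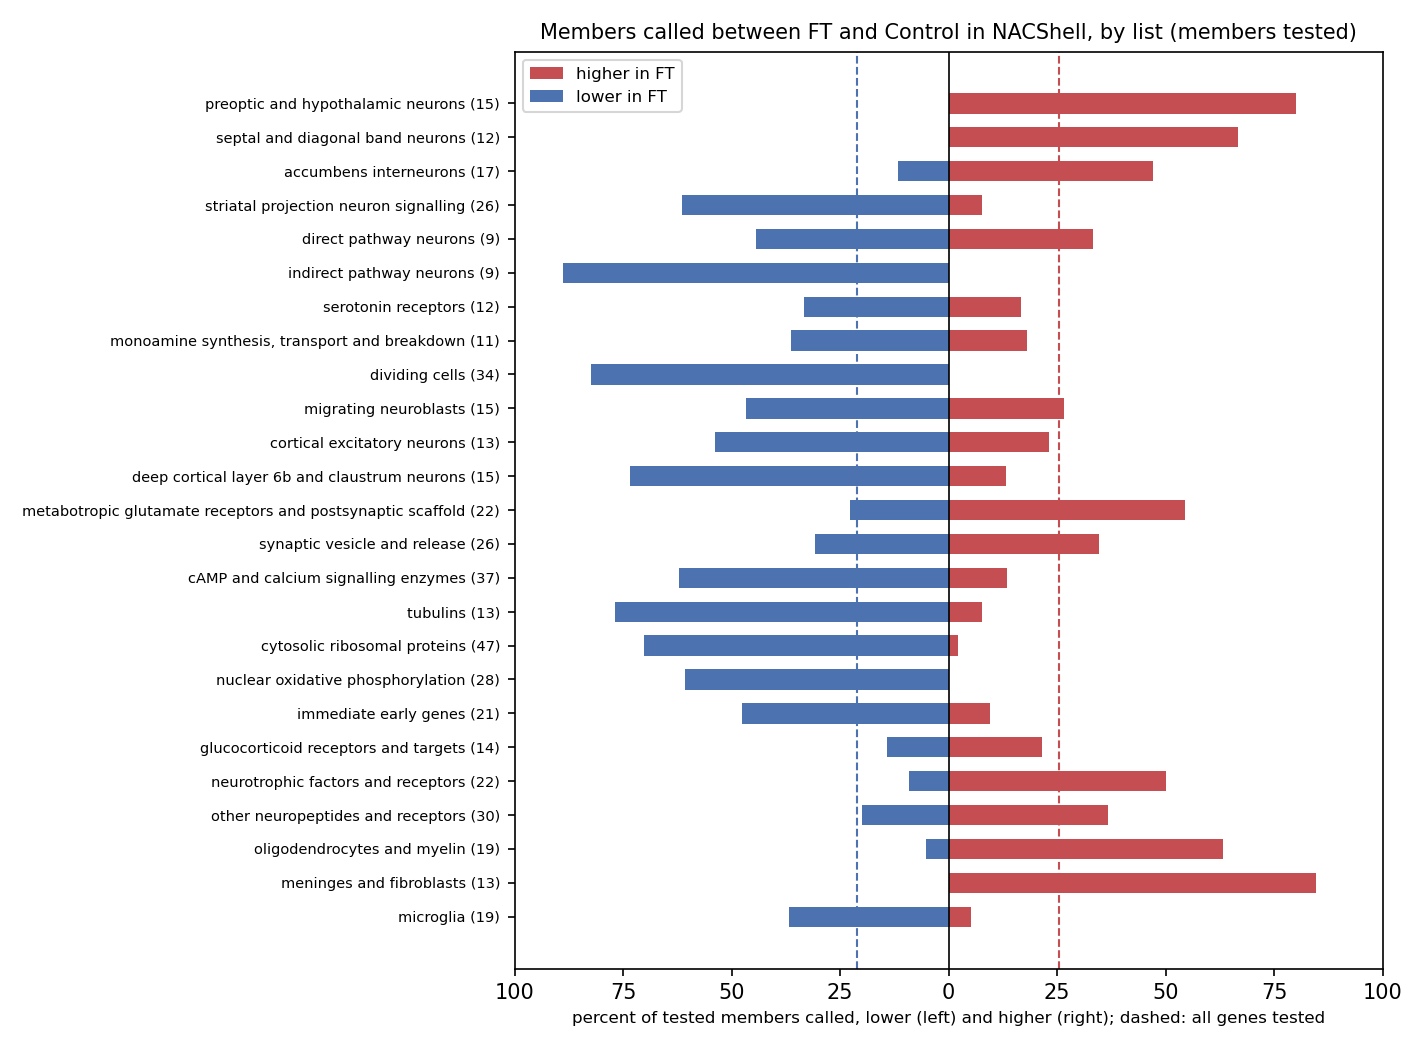
Percent of the tested members of each list that were called lower (left) or higher (right) in FT against Control; the number tested stands in brackets and the dashed lines mark 21.1% lower and 25.5% higher over all genes tested. Hypothalamic, septal and fibroblast lists reach furthest to the right, and indirect pathway and dividing cell lists furthest to the left.

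Activity and stress genes gave mixed values. Of 21 immediate early genes 10 were lower and 2 higher (Jund and Egr1). Arc, which acts at active synapses, stood at 20.9, 24.7, 20.2, 22.4 and 18.3 CPM in Control and at 9.04, 12.8, 8.59, 11.1 and 9.79 CPM in FT. The groups were apart, with a change of -1.03 ± 0.116 (adjusted p = 4.48e-09; -0.41 against Maltodextrin). Nr4a3 and the phosphatase Dusp1 changed by -0.58 and -0.44 (-0.38 and -0.28 against Maltodextrin). Fos was at 9.89 ± 1.4 CPM in Control and at 10.1 ± 1.26 CPM in FT (SD, n = 5) and was not called (adjusted p = 0.991). Jund rose by 1.11 ± 0.128, with FT replicate 1 at 137 CPM and the others at 63.1 to 83.7 CPM. Egr1 passed at 0.33 (adjusted p = 0.0233), although FT replicate 1 at 39.5 CPM lay below all Control libraries; the call was lost without FT replicate 2, 4 or 5 or Control replicate 1 or 3 (adjusted p from 0.0513 to 0.0866) and with only the 10 libraries in the fit (adjusted p = 0.181). Fkbp5, a glucocorticoid target, did not change beyond its spread (33.5 ± 1.29 and 34.1 ± 2.08 CPM, SD, n = 5; adjusted p = 0.698). Its list had 3 of 14 genes higher (Cdkn1a, Klf9 and Ddit4) and 2 lower (Mt2A and Hsd11b1). Cdkn1a, a brake on the cell cycle, rose by 1.06 (0.62 against Maltodextrin), Klf9 by 0.31 (0.12, not called) and Mt2A changed by -0.61 (-0.36). Hsd11b1 changed by -0.26 (-0.15, not called).

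Among neurotrophic factors and receptors 11 of 22 were higher and 2 lower (Creb1, and Sort1 at -0.39, which was -0.09 and not called against Maltodextrin). Bdnf was at 26.3 ± 4.26 CPM in Control and at 26.1 ± 1.12 CPM in FT (SD, n = 5). It was not called (-0.02, adjusted p = 0.892), but stood 0.53 above Maltodextrin. Igf2, a growth factor made by meninges, vessels and choroid plexus, was at 17.4, 18.8, 20, 22 and 21.2 CPM in Control and at 48.8, 55.4, 50.3, 55.8 and 53.1 CPM in FT. FT lay above all 25 other libraries (change 1.41 ± 0.0789, adjusted p = 1.78e-16). The GDNF family receptors Gfra2 and Ret rose by 1.18 and 1.01. Other neuropeptide genes and receptors were higher in 11 of 30 and lower in 6, beside 25.5% higher and 21.1% lower over all genes. The neurotensin receptor Ntsr1 (1.45), the galanin receptor Galr1 (1.49) and gastrin-releasing peptide (Grp, 1.22) were among the higher, and Crhbp, which binds corticotropin-releasing hormone, among the lower (-1.08).

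Among glial and vessel lists, oligodendrocyte and myelin genes were higher in 12 of 19 and lower in 1 (Cnp, at -0.40, which stood 0.43 above Maltodextrin). Sox10, the lineage factor of oligodendrocytes, was at 12, 11.3, 10.2, 12.1 and 11.2 CPM in Control and at 25, 29.3, 32.1, 36.6 and 37.8 CPM in FT. The groups did not overlap (change 1.52 ± 0.105, adjusted p = 5.44e-14), and Bupropion libraries lay within the FT range, at 27.4 to 30.9 CPM. Fa2h and Myrf, an enzyme of myelin lipids and the myelin gene regulator, rose by 1.15 and 0.68. Mbp, the main myelin protein gene, passed at 0.39 (adjusted p = 0.00741) with overlap, since FT replicate 1 at 12800 CPM was below Control. Meningeal and fibroblast genes were higher in 11 of 13 and lower in 0, among them Col1a1 (1.05, and 0.52 against Maltodextrin) and Igfbp2 (1.02), the latter above all other libraries; the list summed to 633 to 694 CPM in Control and 741 to 880 in FT, and its part in the Igf2 result was not tested. Microglia genes were lower in 7 of 19 and higher in 1 (Aif1), while against Maltodextrin 2 were lower and 7 higher; the protease Ctss fell by 0.62 (-0.32 against Maltodextrin). Antigen presentation genes were lower in 4 of 12 and higher in 0, and against Maltodextrin lower in 2 and higher in 4. Of these, B2m and RT1-Da fell by 0.57 and 1.22 (-0.37 and -0.75 against Maltodextrin). Astrocyte genes were higher in 6 of 18 and lower in 9, and against Maltodextrin higher in 11 and lower in 3; the gap junction gene Gja1 fell by 0.53 (-0.29 against Maltodextrin). Of 22 genes of endothelium and mural cells 4 were higher and 3 lower, and against Maltodextrin 2 were higher and 11 lower. Rgs5, of pericytes, fell from 28.3 ± 1.52 to 13.3 ± 1.63 CPM (SD, n = 5), below all other libraries.

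Several of the strongest changes belonged to no list. Agt, the angiotensinogen gene that brain astrocytes express, stood at 77.6, 88.6, 87.4, 88.3 and 84.4 CPM in Control and at 196, 298, 313, 316 and 342 CPM in FT. Every FT library was above the 160 CPM that was the maximum elsewhere, and the change was 1.79 ± 0.0886 (adjusted p = 8.64e-18; 2.33 against Maltodextrin). Gpx3, an extracellular glutathione peroxidase, rose from 13.4 ± 1.33 to 52.6 ± 14.4 CPM, and Gpr165, an orphan receptor, from 11.4 ± 1.19 to 43.7 ± 7.36 CPM (SD, n = 5). The V-ATPase subunits moved apart: Atp6v0a1 rose by 1.08 ± 0.0455 and Atp6v1b2 fell by 0.98 ± 0.0438 (-0.47 against Maltodextrin). Myl12b, a myosin light chain, and Nrsn2 rose by 1.56 and 1.07, and all 5 Bupropion libraries were higher still.

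Bc1, Rmrp and the histone gene Hist2h4 rose by 3.83, 2.88 and 2.32 (0.81, 0.89 and 1.34 against Maltodextrin), and all overlapped libraries of other treatments; all 3 are short transcripts, and Bc1 and Rmrp are noncoding. Fam71f2 (2.38), Zfp575 (2.08) and Lnc016 (1.98) complete the 12 highest. That ranking is among called genes with a gene symbol, a mean log2 CPM of at least 2 and no overlap of FT and Control. On the lower side were Bhmt, an enzyme of methionine synthesis (-1.92), Lyzl4 (-1.89, and -1.25 against Maltodextrin), Ackr3, a scavenger receptor of the chemokine CXCL12 (-1.82 and -1.09), and Nmbr, the neuromedin B receptor (-1.62 and -0.55). Ackr3 went from 12.3 to 17.7 CPM in Control to 2.07 to 5.72 CPM in FT, and Bupropion libraries were as low, at 3.24 to 5.12 CPM.

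The FT effect in NACShell was set against the mean FT effect in CGC, PLC, mPOA and Raphe, in a fit of the 50 libraries of both groups with the treatment replicate as a block. Of 12549 genes 5461 (43.5%) differed, 2619 with a higher and 2842 with a lower effect in NACShell. Without the block 3922 genes differed. CPM in this paragraph are scaled over those 50 libraries, so they differ slightly from those above. Oxt had a difference of 5.48 ± 0.248 (adjusted p = 1.57e-23): its mean went from 2.43 to 197 CPM in NACShell, from 1020 to 1420 in mPOA and from 1.82 to 4.44 in Raphe. Avp had a difference of 2.76 ± 0.337, and its mPOA level was 164 ± 18.8 CPM in Control and 735 ± 274 CPM in FT (SD, n = 5). Means of Ngfr, Lhx8, Chat and Gnrh1 went up in NACShell and down in mPOA; the effect in mPOA alone was not tested. Ngfr rose from 2.04 to 10.5 CPM in NACShell and went from 47.3 to 9.34 CPM in mPOA (difference 3.26 ± 0.227, adjusted p = 9.15e-17). Lhx8 went from 6.32 to 19.9 CPM in NACShell and from 34.8 to 5.95 CPM in mPOA, Chat from 10.2 to 22.3 and from 38.4 to 5.21 CPM, and Gnrh1 from 0.67 to 7.72 and from 59.2 to 19.8 CPM. Differences were also positive for Ppp1r17 (2.52), Trim54 (2.38), Gpx3 (2.36), Hsf4 (2.36) and Agt (1.99).

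Negative differences were found for genes of several groups described above. Cplx3 went from 57 ± 4.43 to 14.1 ± 1.87 CPM in NACShell and from 15 ± 0.594 to 15.8 ± 3.12 CPM in CGC (SD, n = 5), a difference of -1.89 ± 0.113 (adjusted p = 4.18e-19). Ctgf had a difference of -1.82 and Nov of -1.33. Means of both also fell in mPOA, from 18.7 to 4.77 CPM for Ctgf and from 29.3 to 9.62 CPM for Nov. Their effect in mPOA alone was not tested. Ctgf went from 36.3 to 7.41 CPM in NACShell, from 8.29 to 8.38 CPM in CGC and from 5.41 to 5.77 CPM in Raphe. In PLC Ctgf went from 8.77 to 7.3 CPM. Fezf2, of deep cortical neurons, had a difference of -1.75. Nov was at 211 and 170 CPM in CGC Control and FT, and at 211 and 55.7 CPM in NACShell. Top2a, at 9.83 and 3.27 CPM in NACShell, stood between 1.33 and 2.06 CPM in both groups of the other 4 regions, and its difference was -1.65 ± 0.227 (adjusted p = 4.35e-08). Cenpf (-2.23), Ackr3 (-2.25), Bhmt (-1.69), Cartpt (-1.72) and the ribosomal RNA gene Rn5-8s (-3.32) also had negative differences. Cartpt had means of 50.3 and 618 CPM in mPOA Control and FT. Rn5-8s had 18.7 and 18.8 CPM in NACShell and 8.42 and 101 CPM in PLC, with an SD of 109 in the last.

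**Figure D5:**
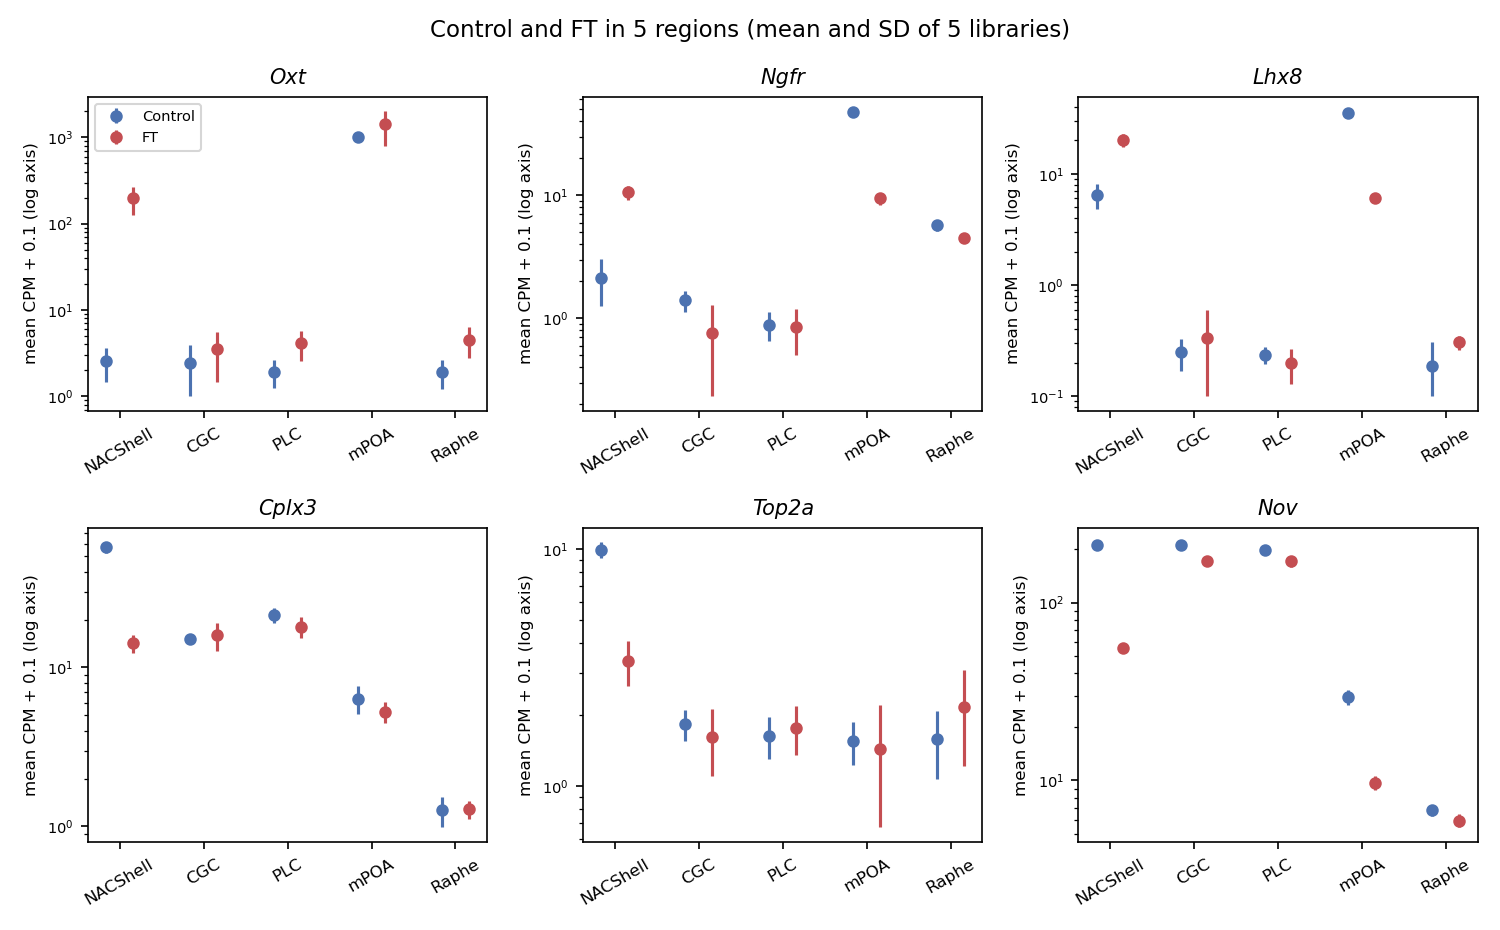
Mean CPM plus 0.1 on a log axis, with the SD of 5 libraries, in Control (blue) and FT (red) of 5 regions for 6 genes. Oxt in FT NACShell is far above CGC, PLC and Raphe and below mPOA, Ngfr and Lhx8 move in opposite directions in NACShell and mPOA, and Cplx3 and Top2a differ most between groups in NACShell.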

How the data were processed

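Brain punches of 10 regions were sequenced as stranded total RNA in 300 libraries; 10 of them, 5 FT and 5 Control from NACShell, are compared here. The deposited values are raw read counts per gene symbol, and STAR, HTSeq and build rn6 are named in the submitters' processing notes, with versions not given in the sources used here. Across the series RNA integrity numbers ran from 7.1 to 10, per the labels, and libraries were read as 150 bp pairs.

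Counts were tested with edgeR 4.0.16 (R 4.3.3; limma 3.58.1): filterByExpr with a minimum count of 10, TMM scaling, glmQLFit over the 30 NACShell libraries with no replicate block, and Benjamini-Hochberg adjustment over all genes tested, called under 0.05. All adjusted p-values are from this tool. The test was checked on simulated counts with 200 changed genes, as many up as down, and the same spread for every gene and library. Those are far fewer than the 5654 genes called here, so that check does not cover changes of this extent. The test between regions used 50 libraries, with treatment replicate as a term, which assumes that equal replicate numbers in different regions share a source. The 5 regions outside it were left out because earlier results showed libraries there that stand apart. No 2 libraries of a group were identical.

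Genes were named by a rule: among genes called with a mean log2 CPM of at least 2, a gene symbol and no overlap of the groups, the 12 highest and 12 lowest changes, the 5 with the smallest adjusted p each way, and up to 4 called members of each list by adjusted p; a fixed set of receptor, peptide and stress genes whatever their result; and the leading differences between regions. Some genes that the rule or a list takes are not reported here. Other members of lists are named as examples. The comparison and the gene lists were chosen with earlier results of these data known. Promoters are from RefSeq GRCr8, which matched 14821 of 17337 symbols directly, and no coordinates of rn6 were used. Alternatives were RLE size factors, library totals, no filter, only the 10 libraries, pooled controls, Maltodextrin as control, a replicate block, DESeq2 1.42.0 and leaving out each replicate, with 1 left-out Desipramine library and lists without FT replicate 1 added after seeing the data.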

Additional observations from a re-analysis of the deposited data

Results flagged for a closer look

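Of 274 sets of 5 libraries screened for named genes, 23 held 1 library far from the other 4, and 18 of the 23 were FT replicate 1; chance flags about 1 in 20 groups. FT replicate 1 was lower than the others of its group in Ache (34.1 CPM, others 72.6 to 82.2), Tnc (2.07, others 5.26 to 6.34), Cplx3 (11.6, others 15.7 to 16.8) and Slc17a7 (86.2, others 142 to 157). It was also lower in Egr1 (39.5, others 85.1 to 98.7), Gpx3 (27.4, others 56.6 to 63.3), Gpr165 (30.7, others 44.9 to 48.2), Zfp575 (4.39, others 7.59 to 8.88) and Trim54 (5.68, others 16.1 to 17.7). It was higher in Foxp2 (210 CPM, others 155 to 165), Htr2c (383, others 276 to 291), Maoa (79.3, others 71.3 to 71.7), Cd24 (47.2, others 35.6 to 37.9) and Neurod6 (51.1, others 32.1 to 35.1). Higher values were also found in Hcn2 (51.6, others 42.1 to 44.7), Jund (137, others 63.1 to 83.7), Bc1 (157, others 22.4 to 35.6) and Rn5-8s (43.1, others 11.3 to 18). In other libraries the same held for Cenpf in FT replicate 3 (2.11 CPM, others 0.979 to 1.3), Prc1 in FT replicate 2 (2.68, others 1.81 to 1.96), Drd2 in Control replicate 2 (93.8, others 81.5 to 83.8), Fkbp5 in Control replicate 2 (35.7, others 32.3 to 33.2) and Nmbr in Control replicate 4 (14.1, others 17.7 to 18.7).

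The FT effect in NACShell differed from the mean effect in CGC, PLC, mPOA and Raphe, in the test of the difference itself, for 5461 genes. Among named genes the log2 difference was 5.48 for Oxt, 3.41 for Gnrh1, 3.26 for Ngfr, 2.76 for Avp, 2.52 for Ppp1r17, 2.38 for Trim54, 2.36 for Gpx3 and 2.36 for Hsf4. It was -3.32 for Rn5-8s, -2.25 for Ackr3, -1.89 for Cplx3, -1.82 for Ctgf, -1.75 for Fezf2, -1.72 for Cartpt and -1.69 for Bhmt.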

How the results depend on the processing

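Of the counts of called genes, the one that moved by over 1.5 times was that of lower genes with library totals alone, at 1553; the cause was not tested. Leaving out 1 library at a time gave 5281 to 6048 genes called, 2869 to 3295 higher and 2373 to 2753 lower, and 5077 to 5355 for the difference between regions. In the NACShell comparison a replicate block gave 5675 genes (3092 higher, 2583 lower). The test between regions called 3922 genes without its block and 5461 with it. Same-numbered FT and Control libraries had correlated deviations of 0.00 to 0.17, other pairs -0.12 to 0.06, and 4 of 5 FT libraries correlated best with their own number, a hint from the data and not from the design.

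Directions turned for a few named genes, the cause not tested. Against Maltodextrin these were Foxp2 (-0.15), Htr4 (-0.40), Nxph3 (0.11), Slc17a7 (0.45), Syp (0.26), Fezf2 (0.05), Fos (-0.12), Fkbp5 (-0.19), Bdnf (0.53), Sst (1.09) and Rn5-8s (0.52). With pooled controls they were Sst (0.40), Fos (-0.05), Fkbp5 (-0.08), Bdnf (0.22) and Rn5-8s (0.20), and with library totals Sst (0.06), Bdnf (0.11) and Rn5-8s (0.04). Fos was -0.01 with RLE, with no filter, with only the 10 libraries and with DESeq2, and Rn5-8s was 0.01 with DESeq2. On leaving out 1 library, Fos ran from -0.06 to 0.08, Rn5-8s from -0.45 to 0.06 and Bdnf from -0.09 to 0.08. List medians turned for direct pathway (0.11) and vesicle genes (0.11) with library totals, for vesicle genes without FT replicate 1 (0.01), and against Maltodextrin for monoamine (-0.14), neuroblast (0.13), cortical excitatory (0.09), tubulin (0.09), oxidative phosphorylation (0.06), vesicle (0.10), glucocorticoid (-0.02) and microglia genes (0.06). Other lists that turned against Maltodextrin included ependyma (0.49 to -0.58), choroid plexus (0.28 to -0.32), antigen presentation (-0.26 to 0.03), astrocytes (-0.08 to 0.23), endothelium (0.07 to -0.30), proteasome (-0.14 to 0.07), core clock (0.06 to -0.15) and sterol synthesis (-0.20 to 0.01). So did sodium, calcium and HCN channels (0.08 to -0.30), potassium channels (0.01 to -0.03), endocannabinoid (-0.24 to 0.21), lysosome (-0.16 to 0.15) and ubiquitin-conjugating enzyme genes (-0.07 to 0.16). FT replicate 1, with 3797720 counts, had the lowest total of the 10 libraries compared, which limits the precision of low genes.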

Other observations

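Several gene groups not described above had counts near or away from those of all genes, of which 25.5% were higher and 21.1% lower. Splicing factors of the SR family were higher in 11 of 17 and lower in 2, with a median change of 0.37, and 0.10 against Maltodextrin. Heat shock and chaperone genes were lower in 12 of 22 and higher in 3, with summed levels of 7980 to 8520 CPM in FT, 11100 to 11700 in Control and 8970 to 9360 in Maltodextrin. Genes of sterol synthesis were lower in 10 of 22 and higher in 1, with a median of -0.20 against Control and 0.01 against Maltodextrin. Core clock genes were higher in 6 of 16 and lower in 4, and against Maltodextrin higher in 4 and lower in 8. Genes of the interferon response were lower in 3 of 22 and higher in 0, and choroid plexus genes higher in 3 of 8 and lower in 0, with summed levels of 34.3 to 51 CPM in FT and 32.4 to 39.7 in Control. Against Maltodextrin, at 51.7 to 81.9 CPM, 1 choroid plexus gene was higher and 4 were lower, and 2 interferon response genes were higher and 8 lower.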
